A study of Homo sapiens with 8 samples.

Results

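The 10 genes described here belong to the hypoxia-inducible factor (HIF) system, and were taken by symbol from the 47591 genes of the expression table. They comprise the HIF subunits HIF1A, EPAS1 and ARNT, the prolyl hydroxylases EGLN1 and EGLN3, and the HIF targets CA9, ADM, NDRG1, BNIP3 and ANKRD37. Their polyadenylated transcripts were counted by RNA-seq in 3 lines of SH-SY5Y, which derives from a human neuroblastoma. G2 (3 libraries) carried Cas9 and a guide RNA against PRPF40B, which encodes a splicing factor. SCR (3 libraries) carried Cas9 and a scramble guide, and WT (2 libraries) was the parental line. According to the study's methods, edited cells were selected with puromycin and grown from single colonies, and the edited and scramble lines were kept in puromycin. An effect of the edit and a property of the G2 colony therefore cannot be told apart. All lines were cultured in high-glucose medium with serum, and the labels name no low-oxygen treatment. The labels call the libraries of a line biological replicates, without saying how separate their cultures were. P-values for single genes therefore measure the spread between replicates within a line.

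HIF is a heterodimer of an oxygen-labile alpha subunit, such as the products of HIF1A and EPAS1, and the stable beta subunit ARNT. When oxygen is available, the EGLN prolyl hydroxylases modify the alpha subunit, VHL recognises it, and it is degraded. When oxygen falls, the dimer accumulates, binds short DNA motifs with the core ACGTG or GCGTG and induces genes of oxygen delivery, glycolysis and pH control. EGLN1 and EGLN3 are themselves HIF targets in many cells, and EPAS1 is known for its expression in sympathetic neuroblasts and in paraganglia. RNA levels do not show how much HIF protein is present, since the pathway acts mainly on protein stability.

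The promoters of 4 members are shown because the HIF core motif is the sequence that the targets are known for. They hold the 250 bases before the RefSeq start in GRCh38.p14, with ACGTG or GCGTG on either strand in capitals, so that CACGC and CACGT are the same motifs read on the other strand. The EGLN1 promoter lies at chr1:231422288-231422537 on the minus strand, that of ADM at chr11:10304823-10305072 on the plus strand, that of BNIP3 at chr10:131981924-131982173 on the minus strand and that of ANKRD37 at chr4:185396591-185396840 on the plus strand.
EGLN1: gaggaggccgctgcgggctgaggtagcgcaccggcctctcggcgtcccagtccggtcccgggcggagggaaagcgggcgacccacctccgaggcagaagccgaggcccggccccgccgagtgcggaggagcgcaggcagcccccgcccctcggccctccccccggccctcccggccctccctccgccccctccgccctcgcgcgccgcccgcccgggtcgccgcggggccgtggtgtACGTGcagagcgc
ADM: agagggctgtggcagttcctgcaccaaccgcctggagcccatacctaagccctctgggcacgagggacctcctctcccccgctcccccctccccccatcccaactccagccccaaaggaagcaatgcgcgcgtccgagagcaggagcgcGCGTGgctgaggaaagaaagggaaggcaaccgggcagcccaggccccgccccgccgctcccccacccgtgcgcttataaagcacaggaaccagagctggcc
BNIP3: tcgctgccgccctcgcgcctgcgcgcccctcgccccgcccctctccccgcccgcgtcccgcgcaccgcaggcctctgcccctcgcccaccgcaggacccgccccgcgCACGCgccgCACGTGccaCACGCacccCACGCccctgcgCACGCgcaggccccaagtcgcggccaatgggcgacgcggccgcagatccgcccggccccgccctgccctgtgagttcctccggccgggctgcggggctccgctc
ANKRD37: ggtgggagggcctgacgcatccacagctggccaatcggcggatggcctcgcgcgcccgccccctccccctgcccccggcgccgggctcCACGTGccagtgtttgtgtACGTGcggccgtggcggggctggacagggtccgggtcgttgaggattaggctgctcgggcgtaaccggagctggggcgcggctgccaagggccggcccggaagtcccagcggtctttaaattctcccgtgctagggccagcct
BNIP3 had 6 matches and ANKRD37 had 3, counting CACGTG, in which ACGTG overlaps its own reverse complement, on each strand. EGLN1 and ADM had 1 match each. The count covers 9 members, as NDRG1 was not included. Of these, 7 had at least 1 match, in HIF1A in 1 of its entries, and ARNT and EGLN3 had none in this window. The same motif stood in 43.1% of 34788 RefSeq promoters of that length, so a match is common and is given as a description. BNIP3 and ANKRD37, the members with most matches, were not called in any comparison below.

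The targeted gene PRPF40B was lower in G2, with 840.2, 840.95 and 918 normalized counts against 1686, 1672 and 1669.5 in SCR and 1972 and 1668 in WT (log2 fold change -0.95, SE 0.08, adjusted p = 7.4e-07 by limma in G2/SCR). Depth was estimated from counts recovered from the normalized values, with 3 counts taken as a fragment, and came to about 19934798 to 27026916 fragments per library. Ribosomal RNA genes took 4.96% and 4.75% of the WT libraries and 0.384% to 0.587% of the others. Markers of cell state also moved with the G2 line. Of 12 adrenergic markers, 10 were lower in G2 in both comparisons, and their summed level was 110967 to 120205 in G2, 218662 to 232441 in SCR and 246228 to 261695 in WT. Of 12 mesenchymal markers, 11 were tested and 10 were higher in both, with sums of 284194 to 288877 in G2, 115374 to 122674 in SCR and 82344 to 94122 in WT. Of the defining mesenchymal genes, FN1 was at the floor of 9 counts, about 3 fragments, in every library. The part of this change of state in the results on HIF genes was not tested.

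**Figure D1:**
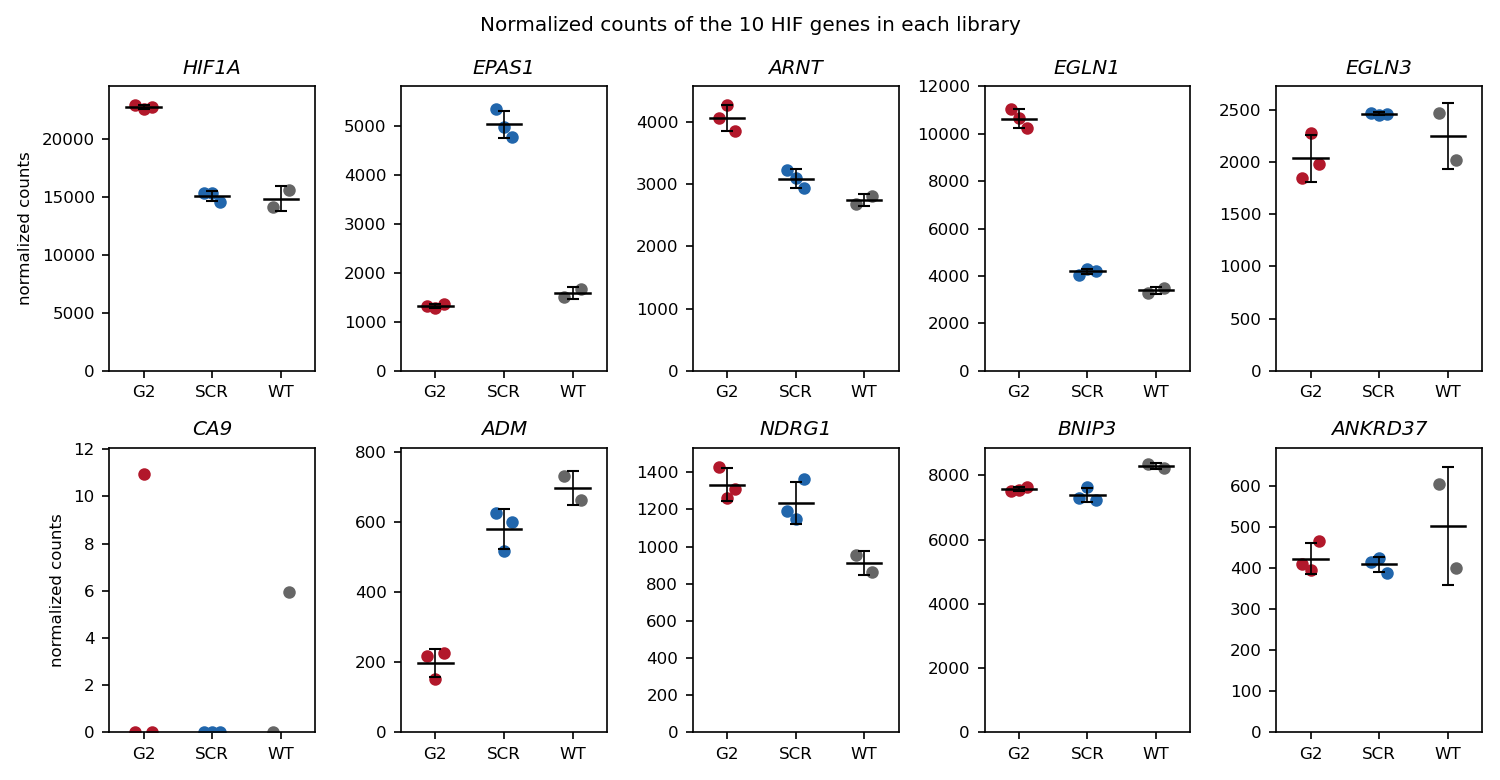
Normalized counts of the 10 genes in each library of G2, SCR and WT, 1 panel per gene with its own axis; points are libraries, bars are means and error bars SD (none is drawn for CA9). G2 stands above both other lines for HIF1A, ARNT and EGLN1 and below both for ADM, while EPAS1 is high in SCR.

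Values throughout are normalized counts, that is read counts corrected by the library's size factor. A gene was called when the fold change was at least 1.5 with an unadjusted p of at most 0.05 in limma on log2(normalized count + 1), and p-values adjusted by the Benjamini-Hochberg method over the 18947 tested genes are printed. Of the 9 members tested, 4 were called in G2/SCR, HIF1A and EGLN1 higher and EPAS1 and ADM lower, while 26.9% of all tested genes were called, 15.1% higher and 11.8% lower. In G2/WT 3 members were called, HIF1A and EGLN1 higher and ADM lower, while 29.9% of all genes were called, 17.7% higher and 12.2% lower. In SCR/WT, the comparison of the lines without the edit, 1 member was called, EPAS1 higher in SCR, while 16.3% of all genes were called, 10.7% higher and 5.63% lower. G2/SCR and G2/WT share the G2 libraries and are not independent. HIF1A, EGLN1 and ADM were called the same way in both and not in SCR/WT, a pattern shared by 13.8% of all genes. In 5 of the 9 members no G2 library fell within the range of the 5 control libraries, which also held for 42.5% of all genes. G2 stood above the controls in 3 of them (HIF1A, ARNT and EGLN1; 22.8% of all genes) and below in 2 (EPAS1 and ADM; 19.7% of all genes). The 9 members had median log2 fold changes of 0.05, -0.13 and 0.14 in G2/SCR, G2/WT and SCR/WT, beside -0.01, 0.00 and 0.01 for all genes.

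**Figure D2:**
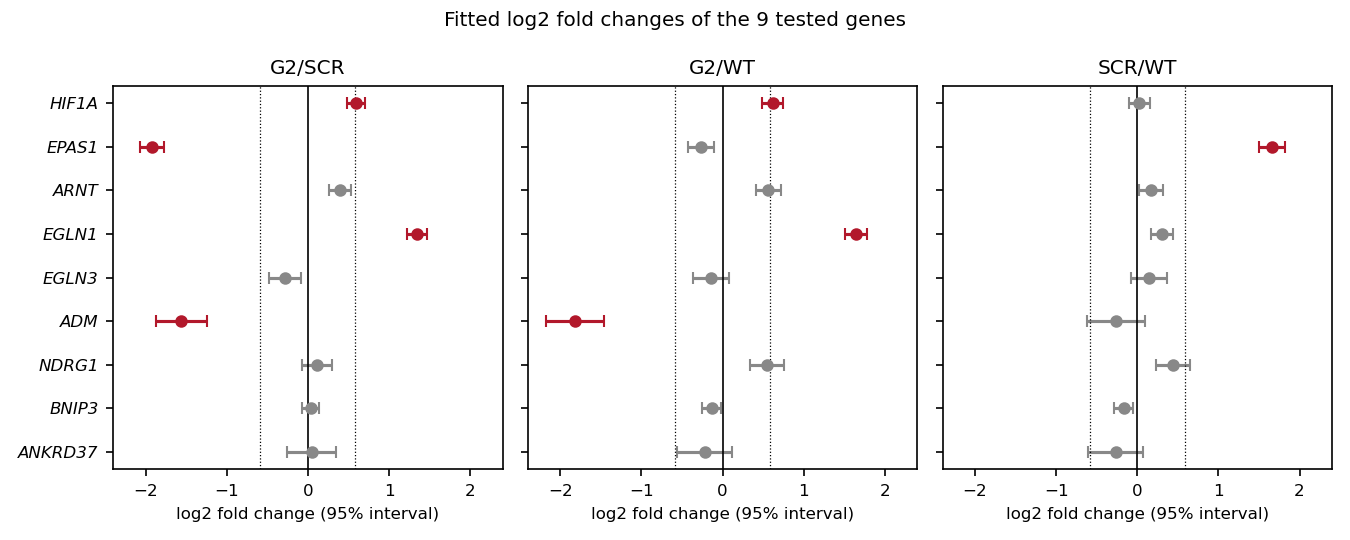
Log2 fold change of the 9 tested genes in G2/SCR, G2/WT and SCR/WT, with 95% intervals from limma; red marks called genes, grey the others, and dotted lines the fold of 1.5. EGLN1 and HIF1A lie right of 0 and ADM left of it in both comparisons with G2, whereas EPAS1 is past the fold threshold where SCR takes part.

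HIF1A encodes the broadly expressed alpha subunit and is located at chr14:61695513-61748259 (hg38, GSHG0012226). It had 22922, 22597 and 22709 normalized counts in G2, 15347, 15354 and 14557 in SCR and 14105 and 15597 in WT. Every G2 library was above every control, and SCR and WT overlapped. The means were 22743 ± 165 (SD, n = 3), 15086 ± 458 (SD, n = 3) and 14851 ± 1055 (SD, n = 2). HIF1A was 1.51-fold higher in G2/SCR (log2 0.59, SE 0.05, adjusted p = 1.5e-06 by limma) and 1.53-fold higher in G2/WT (log2 0.62, SE 0.06, adjusted p = 3.1e-06), with 0.02 in SCR/WT (adjusted p = 0.79). The size stood just past the threshold, log2 0.58, and the call was lost without SCR replicate 3 (0.57 in G2/SCR), without WT replicate 1 (0.54 in G2/WT) and with libraries scaled to the same total (0.50 in G2/SCR). The antisense genes HIF1A-AS1 and HIF1A-AS3 overlap the locus, and because the strand setting of the counting is not stated, their reads cannot be told apart from those of HIF1A.

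EPAS1 encodes the alternative alpha subunit and lies at chr2:46297407-46386699 (GSHG0023769). Its normalized counts were 1322, 1283 and 1357 in G2, 5327, 4975 and 4769.6 in SCR and 1504 and 1678 in WT. SCR stood far above both other lines, and every G2 library was below every WT library by a small margin. The G2 mean was 1321 ± 36.9 (SD, n = 3), beside 5024 ± 282 (SD, n = 3) for SCR and 1591 ± 123 (SD, n = 2) for WT. EPAS1 was 3.80-fold lower in G2/SCR (log2 -1.93, SE 0.07, adjusted p = 4.6e-10 by limma) and 3.16-fold higher in SCR/WT (log2 1.66, SE 0.08, adjusted p = 4.9e-08). In G2/WT the log2 fold change was -0.27 (SE 0.08, adjusted p = 0.010), below the fold threshold. The size of the G2 difference thus depended on which control line was used. EPAS1 is also abundant in endothelial cells, and of 10 endothelial markers 4 could be tested, with PECAM1 listed at 0 in every library and CDH5 above the floor only in WT replicate 2 (23.8). Their summed level was 2251 to 2646 in G2, 1351 to 1491 in SCR and 1750.4 to 2133 in WT. Most of this sum came from EGFL7, with means of 2272 in G2, 1328 in SCR and 1885 in WT, and the part of endothelial transcripts in the EPAS1 values was not tested.

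Because a scale factor of a library cancels in a ratio of its own genes, EPAS1 was also set against HIF1A within each library. The log2 ratio of the normalized counts was -4.11, -4.14 and -4.06 in G2, -1.53, -1.63 and -1.61 in SCR and -3.23 and -3.22 in WT. G2 had the lowest ratio and SCR the highest, without overlap. G2 was 1.86 lower than the controls together (mean difference -1.86, exact two-sided permutation p = 0.0357 over 56 groupings, of which the smallest possible p is 0.0179). Setting SCR apart from G2 and WT together gives a larger difference still, with line means of -4.11 in G2, -1.59 in SCR and -3.22 in WT. The pooled p thus also holds the gap between SCR and WT and is no measure of replicate spread within a line. With SCR alone as control the difference was -2.52 and with WT alone -0.88, each with an exact permutation p = 0.1, the smallest that those numbers of libraries allow. Leaving out 1 control library at a time raised the exact permutation p to as much as 0.0857.

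**Figure D3:**
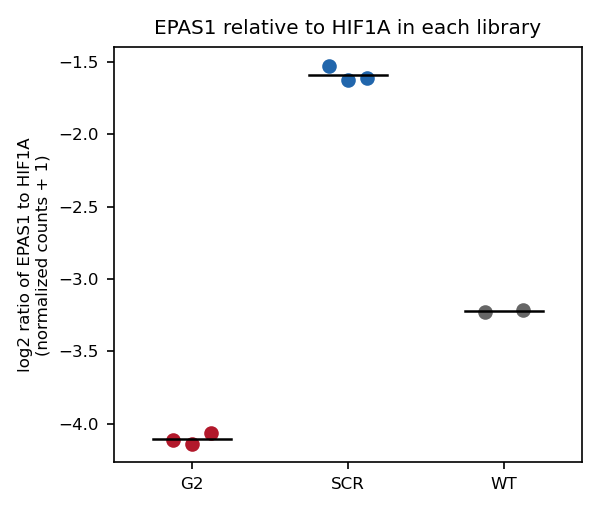
Log2 ratio of EPAS1 to HIF1A, from normalized counts + 1, in each of the 8 libraries by line; points are libraries and bars are means. The G2 libraries lie between -4.14 and -4.06, the WT libraries near -3.22 and the SCR libraries between -1.63 and -1.53.

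ARNT encodes the beta subunit that partners either alpha subunit, and lies at chr1:150809713-150876769 (GSHG0002991). Its level in normalized counts was 4065, 4276 and 3852 in G2, 3230.1, 3099 and 2930.1 in SCR and 2681 and 2808 in WT. Every G2 library was above every control library. G2/SCR gave a log2 fold change of 0.40 (SE 0.06, adjusted p = 0.00022 by limma) and G2/WT gave 0.57 (SE 0.07, adjusted p = 3.0e-05). Both fell short of the fold of 1.5, and SCR/WT was 0.17 (adjusted p = 0.082). ARNT2, the neuronal paralog of ARNT, differed by log2 0.00 from SCR (adjusted p = 0.99) and by -0.01 from WT (adjusted p = 0.96) in G2.

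EGLN1 encodes PHD2, the main oxygen sensor that marks HIF alpha subunits for degradation, and lies at chr1:231363755-231425044 (GSHG0014265). Normalized counts came to 11044, 10659 and 10228 in G2, 4063, 4297 and 4233 in SCR and 3280.4 and 3506 in WT. The lowest G2 library was above the highest control library by a wide margin. The means were 10644 ± 409 (SD, n = 3), 4198 ± 121 (SD, n = 3) and 3393 ± 159 (SD, n = 2). EGLN1 was 2.53-fold higher in G2/SCR (log2 1.34, SE 0.06, adjusted p = 1.8e-09 by limma) and 3.14-fold higher in G2/WT (log2 1.65, SE 0.06, adjusted p = 9.1e-10). SCR/WT was 0.31 (adjusted p = 0.0024), not called. A GENCODE locus with no symbol overlaps EGLN1 on the same strand, so the value may include its reads.

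EGLN3 encodes PHD3, another HIF prolyl hydroxylase, and lies at chr14:33924217-33951078 (GSHG0012795). Normalized counts in the libraries were 1846, 2283 and 1979 in G2, 2474, 2450.4 and 2465 in SCR and 2468 and 2021.4 in WT. The G2 range overlapped WT and lay below SCR. EGLN3 was not called, its log2 fold change being -0.28 in G2/SCR (95% interval -0.48 to -0.08, adjusted p = 0.021 by limma) and -0.14 in G2/WT (95% interval -0.36 to 0.08, adjusted p = 0.27). Among the other oxygen sensors, EGLN2 (PHD1) differed in G2 by log2 0.12 from SCR and by -0.08 from WT, and HIF1AN, the asparaginyl hydroxylase FIH, had -0.06 and 0.05. VHL, the recognition subunit of the ubiquitin ligase for hydroxylated HIF, had -0.18 (adjusted p = 0.040) and -0.28 (adjusted p = 0.0070). None of these genes passed the fold threshold in either comparison.

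Levels per length, in normalized counts per kilobase of the MANE Select transcript, allow the genes to be ordered within a line. HIF1A was the highest HIF subunit in every line, at 5764 in G2, 3823 in SCR and 3764 in WT. EGLN1 at 2455 was above EGLN2 at 2115 in G2, without overlap of the libraries, whereas EGLN2 was above EGLN1 in SCR (1944 against 968) and in WT (2261 against 783). The order in G2 rests on a single transcript length per gene and on an EGLN1 value that may include reads of the overlapping locus. The spread of the libraries measures neither. In SCR, EPAS1 at 975 and EGLN1 at 968 had overlapping libraries, while EPAS1 stood at 256 in G2 and at 309 in WT. HIF3A, which encodes a further alpha subunit, stood at 7.94 in G2, 12.9 in SCR and 1.99 in WT.

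ADM encodes adrenomedullin, a secreted vasodilator peptide and HIF target, and lies at chr11:10305073-10307397 (GSHG0005933). The normalized counts were 217, 153 and 227 in G2, 627, 517 and 602 in SCR and 731 and 663 in WT. Every G2 library was below every control. The means were 199 ± 39.97 (SD, n = 3), 582 ± 57.5 (SD, n = 3) and 697 ± 48.2 (SD, n = 2). ADM was 2.95-fold lower in G2/SCR (log2 -1.56, SE 0.15, adjusted p = 2.6e-06 by limma) and 3.54-fold lower in G2/WT (log2 -1.82, SE 0.16, adjusted p = 1.9e-06), with -0.26 in SCR/WT (adjusted p = 0.24). Beside ADM, 5 receptor genes were listed, CALCRL, the accessory subunits RAMP1, RAMP2 and RAMP3, and ACKR3, of which 2 could be tested. RAMP1 was higher in G2/SCR (log2 0.67, adjusted p = 0.00025 by limma) and not called in G2/WT (-0.50, adjusted p = 0.0038). It was lower in SCR/WT (-1.17, adjusted p = 2.3e-05), so SCR was the lowest of the 3 lines. RAMP2 was called in neither comparison with G2 (-0.01 and 0.08). CALCRL, which encodes the receptor itself, and ACKR3 were listed at 0 in every library.

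CA9 encodes a membrane carbonic anhydrase that is a widely used HIF marker, and lies at chr9:35673856-35681159 (GSHG0043295). It was listed at 0 in 6 of the 8 libraries, with 10.9 normalized counts in G2 replicate 2 and 5.96 in WT replicate 2. These correspond to about 3.33 and 2 fragments, so no difference was detectable at this depth and CA9 was not tested. Among 11 other carbonic anhydrases 7 were tested, of which 3 were higher in G2/SCR, 4 were higher in G2/WT and none was lower, while 15.1% and 17.7% of all tested genes were higher. CA12, CA13 and CA14 averaged 10 or more, and so were tested, only through their G2 libraries, which favours higher calls. These counts therefore cannot be weighed against the shares of all genes. CA13, called only in G2/WT, was at the floor in WT. CA11, which encodes a catalytically inactive relative, had 1389.7, 1685 and 1676 normalized counts in G2 against 624 to 716 in SCR and 609.6 to 745 in WT (log2 fold change 1.21, adjusted p = 1.4e-06 by limma in G2/SCR). CA12, a membrane enzyme and HIF target, stood at 76.6 to 94.1 in G2 and 7.14 to 12.2 in SCR (log2 3.03, adjusted p = 0.00045), and its level exceeded that of WT, which was at the floor, by at least 8.26-fold. CA14, likewise a membrane enzyme, had 32.0, 35.04 and 48.4 in G2, at least 4.72-fold above SCR and at least 3.83-fold above WT, both at the floor of 9 counts in each library.

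NDRG1 encodes a stress-responsive protein and lies at chr8:133237171-133297586 (GSHG0042867). The libraries gave normalized counts of 1431, 1260.3 and 1309.9 in G2, 1194, 1148 and 1363 in SCR and 956 and 865 in WT. G2 and SCR overlapped and both lay above WT. It was not called, with log2 fold changes of 0.11 in G2/SCR (95% interval -0.07 to 0.30, adjusted p = 0.30 by limma), 0.55 in G2/WT (95% interval 0.34 to 0.76, adjusted p = 0.00045) and 0.44 in SCR/WT (adjusted p = 0.0041). The related NDRG2, NDRG3 and NDRG4 were not called in either comparison with G2. NDRG4 had log2 fold changes of -0.52 (adjusted p = 2.0e-05) against SCR and 0.03 against WT, and NDRG2 had -0.49 (adjusted p = 0.00012) and 0.13, while NDRG3 had -0.10 and -0.33.

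BNIP3 encodes a mitochondrial outer membrane protein that acts as a mitophagy receptor, and lies at chr10:131967683-131981956 (GSHG0005579). Its level was 7509, 7542 and 7629 in G2, 7285, 7638 and 7248 in SCR and 8356 and 8223 in WT. G2 and SCR overlapped and WT was slightly higher. BNIP3 was not called, with log2 fold changes of 0.03 in G2/SCR (95% interval -0.07 to 0.14, adjusted p = 0.60 by limma) and -0.13 in G2/WT (95% interval -0.25 to -0.02, adjusted p = 0.056). In SCR/WT it was -0.17 (adjusted p = 0.031), below the fold threshold. Of 10 other mitophagy genes 1 was higher and 1 lower in G2/SCR, and 3 were higher and 1 lower in G2/WT, beside 26.9% and 29.9% of all tested genes called. SQSTM1, a cargo adaptor, was higher in both (log2 0.77 and 0.85, adjusted p = 7.2e-08 and 8.5e-08). PHB2, a prohibitin, was lower in G2/WT (-0.59, adjusted p = 1.3e-05) with -0.49 in G2/SCR.

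ANKRD37 encodes an ankyrin repeat protein that is a HIF target, and lies at chr4:185396684-185400628 (GSHG0033152). Normalized counts stood at 409, 394 and 465 in G2, 414, 424 and 388 in SCR and 603 and 400.1 in WT. The lines overlapped, and the WT libraries lay far apart. The log2 fold changes were 0.05 in G2/SCR (95% interval -0.26 to 0.35, adjusted p = 0.81 by limma) and -0.22 in G2/WT (95% interval -0.56 to 0.12, adjusted p = 0.26). UFSP2 overlaps ANKRD37 on the other strand and had -0.02 and -0.10.

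**Figure D4:**
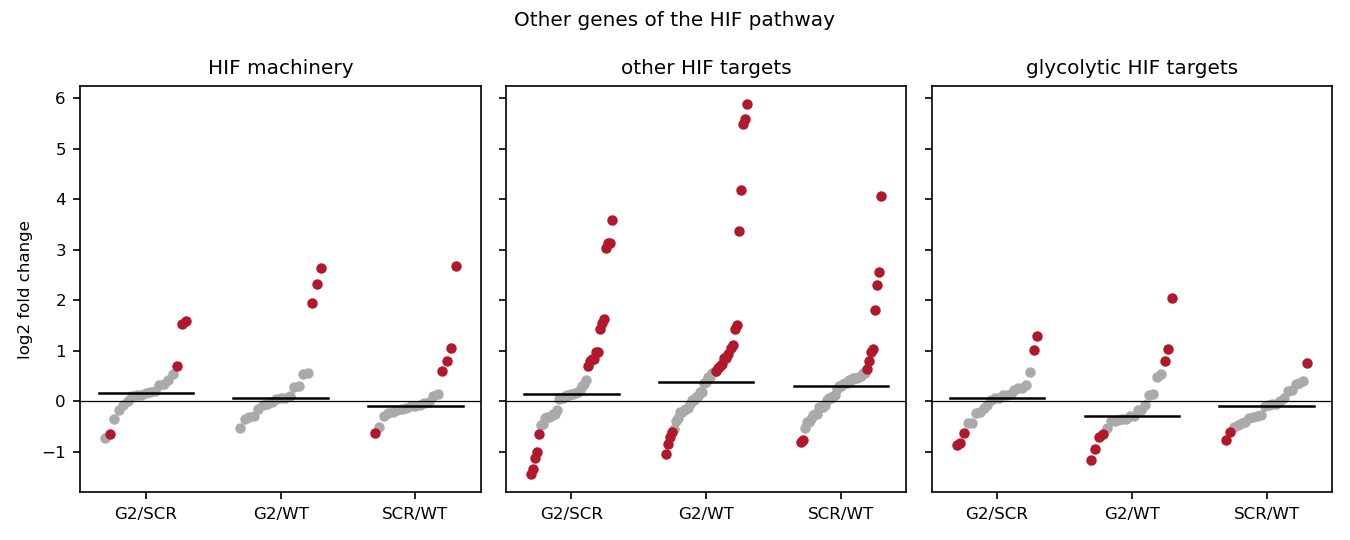
Log2 fold change in G2/SCR, G2/WT and SCR/WT for each tested gene of the HIF machinery, the other HIF targets and the glycolytic HIF targets, sorted by value within each comparison; red points were called, grey points were not, and bars are medians. The other HIF targets spread to both sides of 0, with medians of 0.14 against SCR and 0.39 against WT for G2, and 0.31 in SCR/WT.

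The other genes of the HIF machinery were counted as a list of 19, all of which were tested. In G2/SCR 3 were higher and 1 lower (median log2 fold change 0.16), and in G2/WT 3 were higher and none lower (median 0.06). These are 21.1% and 15.8% of the list, below the 26.9% and 29.9% of all tested genes. In SCR/WT 4 were higher and 1 lower (median -0.10), which is 26.3% of the list beside 16.3% of all tested genes. AJUBA, a LIM protein that takes part in the hydroxylase and VHL complex, was higher in both (log2 1.53 and 2.32, adjusted p = 1.3e-08 and 1.1e-09 by limma), and also in SCR/WT (0.79). OS9, which binds HIF1A and the hydroxylases, was higher in G2/SCR (0.71, adjusted p = 8.0e-07) and had 0.55 in G2/WT, not called. ELOC, the elongin subunit of the VHL ligase, had 0.55 and 0.31, not called in either. CITED2, a negative regulator of HIF that competes for its coactivator, was higher in both and was named after its values were seen, with 189, 169 and 255 normalized counts in G2, 58.2 to 78.6 in SCR and 29.8 and 32.8 in WT.

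Of 44 other HIF targets 41 were tested. In G2/SCR 13 were higher and 5 lower (median log2 fold change 0.14), and in G2/WT 16 were higher and 4 lower (median 0.39). Between the lines without the edit, SCR/WT, 8 were higher and 2 lower (median 0.31). The share called was 43.9% with SCR and 48.8% with WT as control, and in SCR/WT it was 24.4%, beside 26.9%, 29.9% and 16.3% of all tested genes. CA12, named above, is in this list and was tested only through its G2 libraries. The list was also chosen with earlier results of these data known, so the shares are a description with no test. P4HA1 and P4HA2, which encode collagen prolyl hydroxylases, were higher in both comparisons. P4HA1 had 2338, 2435 and 2476 normalized counts in G2, 718 to 816 in SCR and 824 and 867 in WT (log2 1.64 against SCR and 1.51 against WT, adjusted p = 3.6e-09 and 2.1e-08 by limma). P4HA2 rose by log2 0.97 and 1.43 (adjusted p = 7.3e-07 and 7.1e-08). MXI1, a repressor that opposes MYC, was lower in G2/SCR (-1.002, adjusted p = 5.0e-08) and had -0.21 in G2/WT, since it was higher in SCR/WT (0.80), an order of the lines also seen in EPAS1.

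Among 23 glycolytic HIF targets 22 were tested, and 2 were higher and 3 lower in G2/SCR (median log2 fold change 0.07). In G2/WT 3 were higher and 4 lower (median -0.29). The shares called, 22.7% and 31.8%, were near the 26.9% and 29.9% of all tested genes. SLC2A1, the glucose transporter GLUT1, had 2089.8, 2109 and 2122 normalized counts in G2, 3651 to 4125 in SCR and 4081 and 3980.3 in WT, and was lower in both comparisons (log2 -0.87 and -0.94, adjusted p = 1.7e-07 and 2.7e-07 by limma). ALDOC, an aldolase, was also lower in both (-0.82 and -1.16, adjusted p = 5.3e-06 and 7.2e-07). GBE1, the glycogen branching enzyme, was higher in both (1.02 and 1.03, adjusted p = 1.7e-06 and 4.0e-06).

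The chromosomal surroundings of the called members were measured with 80 genes for each, the nearest on either side in equal number. Only genes averaging 100 or more normalized counts were taken. Their median log2 fold change lay between -0.02 and 0.12 in G2/SCR and between 0.05 and 0.12 in G2/WT for HIF1A, EPAS1, EGLN1 and ADM, so the neighbours did not share the size of these differences.

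The genes most like HIF1A and EPAS1 over the 8 libraries were sought among 12588 genes by the root mean square difference of their centred log2 profiles, which is a description with no test. Nearest to HIF1A were ZNF644 (0.0344), SLC39A6 (0.0362) and MEX3C (0.0392). SLC39A6, a zinc transporter, had means of 9825, 6403 and 6379.5 normalized counts in G2, SCR and WT. Among the nearest to EPAS1 were BBC3 (0.177) and NAP1L3 (0.197), at larger differences. BBC3, which encodes the pro-apoptotic protein PUMA, had means of 1098, 3528 and 1236. CA9 was left out, being at or near 0.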

How the data were processed

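RNA-seq libraries of SH-SY5Y lines were assigned to G2 (3), SCR (3) and WT (2) by their labels, and no column was left unassigned. The authors aligned the read pairs (STAR, hg38), counted reads per FAST DB gene (featureCounts) and normalized with DESeq2; the deposited signal is this normalized count, neither scaled to gene length nor logged. The strand setting and the treatment of reads matching several genes are not given in the sources used here.

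Genes averaging 10 or more were fitted with limma 3.58.1 (R 4.3.3) on log2(value + 1), with a mean per line and a trend in eBayes, so a fold change is on that scale and understates that of low genes. Every library's values were whole multiples of a step in 100% of genes (tolerance 0.02). The step of WT replicate 2 is too near 1 for this to be a check there, so the recovered counts of G2 and SCR only were also tested with DESeq2 1.42.0 and edgeR 4.0.16. Small recovered counts were mostly multiples of 3, and a fragment was taken as 3 counts; limits from counts cover counting error only. Sequences are from RefSeq (GRCh38.p14) and lengths from GENCODE. The fit was tested on simulated data. Alternatives were other pseudocounts, filters, scalings, thresholds, tools and left-out libraries. The members and the lists were chosen with earlier results of these data known. Named genes are all members and, of each other list, the 3 with the smallest p in G2/SCR; for HIF1A and EPAS1, the 3 genes with the nearest profile. Others are marked where named, and some genes that this rule names are not reported here.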

Additional observations from a re-analysis of the deposited data

How the results depend on the processing

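Over all alternatives, 542 of 576 values of single members kept their direction and side of the threshold. DESeq2 and edgeR, on G2 and SCR, also called 4 members. Scaling libraries to the same total moved the median of all genes by -0.09 in G2/SCR, 0.18 in G2/WT and 0.28 in SCR/WT, on the log2 scale, and the share of higher calls from 56.2% to 47.4%, from 59.3% to 75.8% and from 65.6% to 90.7%. Under it 5 members were called in G2/WT, with ARNT (0.75) and NDRG1 (0.74) added, and 2 in SCR/WT, with NDRG1 (0.71). The same scaling without ribosomal RNA genes, chosen after seeing the data, also gave 5 and 2. Values that changed sign, all of them not called, were, under the same total, BNIP3 at -0.057 and ANKRD37 at -0.044 in G2/SCR, EGLN3 at 0.047 and BNIP3 at 0.053 in G2/WT, and ADM at 0.013, BNIP3 at 0.11 and ANKRD37 at 0.00997 in SCR/WT. Without ribosomal RNA genes they were BNIP3 at -0.0574 and ANKRD37 at -0.0439 in G2/SCR and BNIP3 at 0.046 in SCR/WT. The cause was not tested.

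Leaving out 1 library at a time gave 3 to 4 members in G2/SCR, 3 to 4 in G2/WT and 1 in SCR/WT. In G2/WT, ARNT passed the fold of 1.5 without G2 replicate 3 (0.60) and without WT replicate 2 (0.60). Signs changed for ANKRD37 in G2/SCR (-0.024 to 0.095), G2/WT (-0.52 to 0.076) and SCR/WT (-0.56 to 0.030), for EGLN3 in G2/WT (-0.28 to 0.0048) and SCR/WT (-0.0032 to 0.28), and for HIF1A in SCR/WT (-0.048 to 0.097). The EPAS1 to HIF1A difference ranged from -2.11 to -1.69, and was -2.52 against SCR and -0.88 against WT. The exact permutation p was 0.1 against either control alone, 0.0476 without 1 G2 library, each the smallest possible, and 0.0857 without 1 SCR library or 0.0571 without 1 WT library, where the smallest possible was 0.0286.

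The replicate numbers did not pair the libraries, since same-numbered G2 and SCR libraries deviated with correlations of -0.13, 0.05 and 0.15. With the replicate block by title number, 4, 4 and 1 members were called in G2/SCR, G2/WT and SCR/WT, ARNT (0.60) being added in G2/WT, and with the number in the library name 4, 3 and 1, ANKRD37 being at -0.052 in G2/SCR. Over all genes 5088, 5657 and 3097 were called, and 3088, 3633 and 1723 with a mean of at least 100, or 2951, 3176 and 1491 at a fold of 2, where HIF1A was not called.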

Other observations

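Further HIF targets of the lists were named after their values were seen. BHLHE40, a transcriptional repressor, had 248, 288 and 190.2 normalized counts in G2, 17.4 to 52.6 in SCR and 12.4 and 11.9 in WT, and BHLHE41, its paralog, had 235, 235 and 150.4, with 17.8 to 26.5 in SCR and 24.8 and 13.9 in WT. Both were higher in G2/SCR (log2 3.14 and 3.13, adjusted p = 2.1e-05 and 3.0e-06 by limma) and in G2/WT (log2 4.19 and 3.38).

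VEGFA, the angiogenic growth factor, and LDHA, lactate dehydrogenase, set WT apart. VEGFA had 2237, 2497 and 2352 normalized counts in G2, 1977 to 2278 in SCR and 3562 and 3607 in WT. LDHA had 27351, 27108 and 26642 in G2, 24095 to 25597 in SCR and 42685 and 41544 in WT. Both were lower in G2/WT (log2 -0.60 and -0.64) and in SCR/WT (-0.77 and -0.76), and not called in G2/SCR (0.17 and 0.12). Scaling libraries to the same total moved the median of all genes by 0.18 in G2/WT and 0.28 in SCR/WT. The calls against WT lie within such a shift of the threshold of log2 0.58, so they depend on the scaling.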
